A study of Mus musculus with 6 samples.

Results

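The matrix metalloproteinases (MMPs), the ADAMTS proteases and the tissue inhibitors of metalloproteinases (TIMPs) were examined in RNA from mouse T cells grown with ID8 cells, an established line of ovarian cancer from the mouse. The members were chosen by name. They are protein-coding genes of the deposited table named Mmp, Adamts or Timp followed by a number, with Mmp1b. Not every gene with such a name is a member, and Mmp1a, which the table classes as a polymorphic pseudogene, is not. This gave 44 of 54532 genes, made up of 21 MMPs, 19 ADAMTS and 4 TIMPs. T cells were isolated from spleens of C57BL/6 mice 6 to 8 weeks old, kept in medium with IL-2 and pre-activated with anti-CD3/28 beads before co-culture, in both groups alike. There were 3 libraries of T cells that met ID8 cells pretreated with 40 µM cisplatin (cisplatin libraries) and 3 of T cells that met ID8 cells pretreated with PBS (control libraries). ID8 is 1 established line, and no library of T cells or of ID8 cells alone was analysed here. The labels do not say whether the 3 libraries of a group came from separate mice or cultures, so p-values measure the spread between these libraries, which may be technical.

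MMPs are zinc-dependent enzymes that cut collagens, gelatin and other matrix proteins, and most are made as inactive precursors. ADAMTS proteases are secreted relatives that carry thrombospondin repeats, and their substrates include proteoglycans, procollagens and von Willebrand factor. TIMPs bind the active site of MMPs and, in the case of TIMP3, of several ADAMTS and ADAM enzymes as well. In ovarian tumours these genes are made by tumour cells, stroma and leukocytes.

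The libraries held 30606569 to 32169496 reads on genes. T-cell markers were abundant and markers of ID8 cells were present in every library. The 18 T-cell identity genes summed to 2417 to 2484 FPKM (fragments per kilobase of gene, scaled to library size) in the cisplatin and 1509 to 1624 FPKM in the control libraries. Of 16 ID8 and mesothelial markers, 12 averaged at least 0.5 FPKM, 11 of these were called lower by the test described with the members, and the sum of the 16 was 227 to 234 FPKM in the cisplatin and 1552 to 1623 FPKM in the control libraries. None of the 16 was at 0 in all libraries, and Krt7, Muc16, Igfbp5 and Tpm2 averaged under 0.5 FPKM. In RNA from whole samples, fewer cells of a type cannot be told apart from less RNA per cell, and the part of the ID8 RNA in the fold changes reported here was not tested.

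Promoter sequences are shown because the members of the MMP cluster and the other members differed in the motifs searched. RefSeq promoters (GRCm38.p6, 250 bases before to 50 after the start) were found for 30 of the 44 members. They were searched on both strands for TGANTCA, for TATAAA, the TATA box, and for GGGCGG, the GC box. TGANTCA is wider than the site of the AP-1 factors, TGACTCA or TGAGTCA. An AP-1 site was in the promoters of 6 of the 8 members of the MMP cluster on chromosome 9 and of 0 of the 22 other members, against 7.81% of all promoters in the table. TATAAA was found for 7 of the 8 cluster members and 2 of the 22 others (4234 of 27025 genes in all). GGGCGG was found for 0 of the 8 and 18 of the 22 (10324 of 27025 genes in all). The TGANTCA matches began between positions -95 and -35 from the start. The farthest, in Mmp20, read TGAATCA and is not an AP-1 site by these letters. The 150 bases before the start are given for 4 cluster members, with the AP-1 and TATA letters in capitals.
Mmp13, chr9:7272364-7272513, plus strand: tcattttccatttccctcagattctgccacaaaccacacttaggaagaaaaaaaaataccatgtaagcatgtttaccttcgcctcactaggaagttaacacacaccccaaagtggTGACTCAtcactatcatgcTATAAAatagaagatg
Mmp10, chr9:7502192-7502341, plus strand: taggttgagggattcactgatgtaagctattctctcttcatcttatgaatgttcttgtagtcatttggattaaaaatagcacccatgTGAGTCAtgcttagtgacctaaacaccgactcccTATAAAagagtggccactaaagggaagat
Mmp3, chr9:7445672-7445821, plus strand: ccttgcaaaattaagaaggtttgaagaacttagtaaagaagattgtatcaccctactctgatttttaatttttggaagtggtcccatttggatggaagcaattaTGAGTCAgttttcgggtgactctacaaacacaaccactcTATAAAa
Mmp8, chr9:7558279-7558428, plus strand: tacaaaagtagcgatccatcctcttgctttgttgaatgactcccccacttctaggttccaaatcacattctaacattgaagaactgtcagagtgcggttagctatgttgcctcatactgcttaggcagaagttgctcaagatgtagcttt
In Mmp8 a match to TATAAA on the other strand spans the start itself, so no capitals appear in this window. For contrast, the same 150 bases are given for members outside the cluster that were called lower, with GGGCGG and TATAAA on either strand in capitals.
Mmp11, chr10:75932503-75932652, minus strand: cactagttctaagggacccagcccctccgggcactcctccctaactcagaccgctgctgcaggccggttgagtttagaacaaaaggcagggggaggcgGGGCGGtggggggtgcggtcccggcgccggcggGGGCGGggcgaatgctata
Adamts1, chr16:85803114-85803263, minus strand: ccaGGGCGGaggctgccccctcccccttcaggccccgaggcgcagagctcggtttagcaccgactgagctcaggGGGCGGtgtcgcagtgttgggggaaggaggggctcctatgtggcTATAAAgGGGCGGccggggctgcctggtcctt
A match describes the letters and was not tested as a binding site. No matches of different motifs overlapped in these windows.

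Of the 44 members, 18 averaged at least 0.5 FPKM over the 6 libraries and were tested (9 MMPs, 6 ADAMTS and 3 TIMPs), 25 had reads but averaged less, and Mmp1b had 0 reads. The question was which proteases and inhibitors differed in level after cisplatin pretreatment of the tumour cells. The groups were compared with limma on log2(FPKM + 0.1), a scale that understates the change of low genes, over 15874 genes. A gene was called when its adjusted p-value was under 0.05 and its level differed 2-fold or more (the fold minimum). Among the 18 tested members, 9 were called lower and 1, Mmp25, was called higher. Of these 9, Mmp24 averaged under 0.5 FPKM in the cisplatin libraries and was tested only through its control level. Over all tested genes 12.8% were called lower and 4.11% higher, and over the protein-coding ones 14.8% and 2.03%. By the adjusted p-value without the fold minimum, 11 members were lower and 2 higher, against 29% and 27.5% of all tested genes. Over all tested genes 2034 were called lower and 653 higher, and 3763 and 139 when the log2 values were shifted to give all libraries 1 mean of the T-cell identity genes (T-cell centring), which moved the median of all genes from 0.03 to -0.55. Without that centring the median log2 fold change was -1.12 for the members and 0.03 for all tested genes. In 12 members every cisplatin library was below every control library, and in 4 members every one was above. Over all tested genes this was so for 32.3% and 31.9%.

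**Figure D1:**
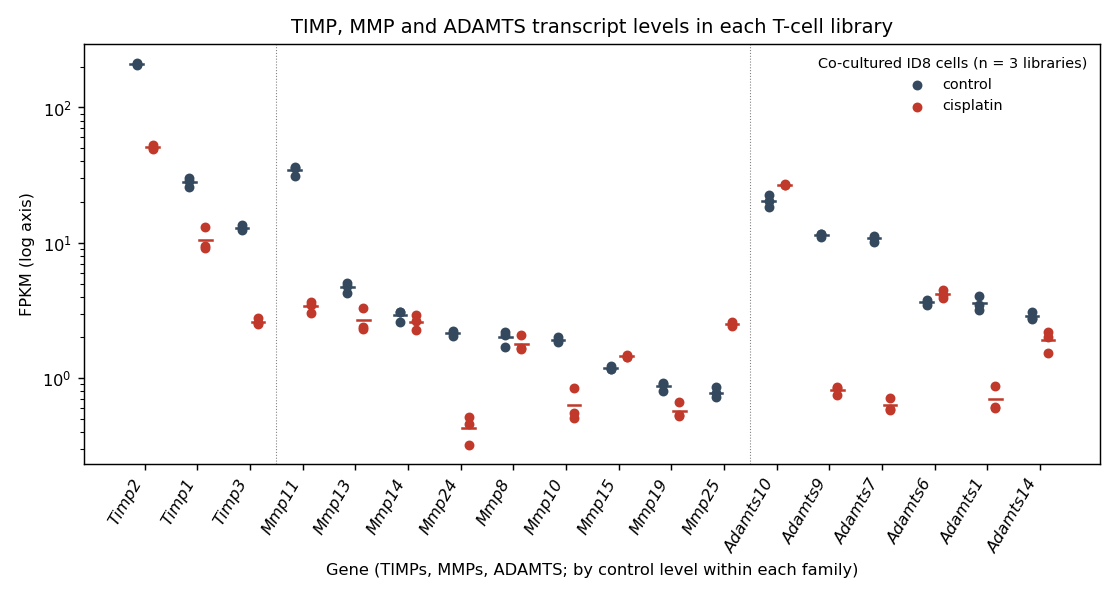
FPKM of the 18 tested members in each library on a log axis, with points for libraries, short lines for the means, 3 control (dark) and 3 cisplatin (red) libraries per gene. Timp2 stands highest in both groups, and the widest gaps between groups are those of Adamts7, Adamts9 and Mmp11.

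The TIMPs had the highest summed FPKM of the 3 families and all 3 tested were called lower. Timp2, which inhibits many MMPs and takes part in activating pro-MMP2 at the cell surface, lies at chr11:118301069-118355740. It had 209.6, 213 and 207 FPKM in the control and 53.2, 49.6 and 50.1 FPKM in the cisplatin libraries. The groups were far apart, with means of 51.0 ± 1.96 FPKM against 210.0 ± 2.75 FPKM (SD, n = 3), a 4.12-fold fall and a log2 fold change of -2.04 (SE 0.04, adjusted p = 1.1e-07, limma). Timp3, a TIMP that stays bound to the matrix, had 12.9, 12.4 and 13.6 FPKM in the control and 2.56, 2.51 and 2.76 FPKM in the cisplatin libraries, a log2 fold change of -2.27 (SE 0.06, adjusted p = 5.67e-07, limma). Timp1, a secreted inhibitor induced in many inflamed tissues, had 28.6, 25.95 and 30.2 FPKM in the control and 13.0, 9.41 and 9.21 FPKM in the cisplatin libraries. Cisplatin library 1 was the highest of its group and still below every control library, and the log2 fold change was -1.43 (SE 0.14, adjusted p = 0.000155, limma). Timp4 was near the limit of detection, with 43 reads over the control and 21 over the cisplatin libraries. TIMPs made up 69.4% to 71.7% of the summed FPKM of all members in the control and 54.1% to 55.6% in the cisplatin libraries. Summed TIMP over summed MMP FPKM was 4.58 to 5.13 in the control and 3.61 to 3.71 in the cisplatin libraries, and the TIMP sum was 3.92-fold and the MMP sum 3.005-fold lower in the cisplatin libraries, with no test of the difference. Timp1, Timp3 and Timp4 overlap the synapsin genes Syn1, Syn3 and Syn2 on the opposite strand. Timp1 shares 0 exon bases with Syn1, and Timp3 shares 21.3% of its exon bases with Syn3, which had 0.146 FPKM in the cisplatin and 0.158 FPKM in the control libraries on average.

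Among the stromelysins, Mmp11 showed the largest fall of any tested MMP. Mmp11 (stromelysin-3), an enzyme activated inside the cell by furin and known from tumour stroma, lies at chr10:75923222-75936496. It had 36.0, 35.6 and 31.4 FPKM in the control and 3.68, 3.05 and 3.45 FPKM in the cisplatin libraries. The means were 34.3 ± 2.58 FPKM and 3.40 ± 0.319 FPKM (SD, n = 3), a 10.1-fold fall with a log2 fold change of -3.30 (SE 0.09, adjusted p = 4e-07, limma). Mmp11 held 64.1% to 66.1% of the summed MMP FPKM in the control libraries and 18.4% to 20.3% in the cisplatin libraries. Mmp10 (stromelysin-2), which cuts proteoglycans and fibronectin, had 2.01, 1.90 and 1.84 FPKM in the control and 0.843, 0.508 and 0.555 FPKM in the cisplatin libraries. Its log2 fold change was -1.48 (SE 0.21, adjusted p = 0.000999, limma), and it was -0.84 and under the fold minimum at a pseudocount of 1. Mmp3 (stromelysin-1) had at most 2 reads in any library, so no fold change is given. Mmp11 shares 5.58% of its exon bases with Chchd10 on the opposite strand, which averaged 31.0 FPKM in the control and 9.35 FPKM in the cisplatin libraries. The use of strand in counting is not given in the sources used here, so reads of members that share exon bases with an opposite-strand gene cannot be told apart from that gene's.

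The collagenases and gelatinases were low. Mmp13 (collagenase-3) had 4.77, 5.04 and 4.23 FPKM in the control and 3.29, 2.31 and 2.39 FPKM in the cisplatin libraries. The groups did not overlap, and the log2 fold change of -0.80 (SE 0.15, adjusted p = 0.00356, limma) was under the fold minimum. Mmp8, the collagenase best known from neutrophils, had 2.20, 1.71 and 2.10 FPKM in the control and 1.67, 2.08 and 1.63 FPKM in the cisplatin libraries. The groups overlapped, with a log2 fold change of -0.15 (95% interval -0.51 to 0.21) that turned to 0.04 after quantile normalization. Mmp9 (gelatinase B) had 26, 16 and 7 reads in the control and 23, 36 and 39 reads in the cisplatin libraries. The groups overlapped, and the control over cisplatin ratio of its summed reads, scaled to depth, was 0.51 (exact 95% interval 0.354 to 0.725, counting error only). Mmp2 (gelatinase A), a product of many mesenchymal cells, had 9, 12 and 13 reads in the control and 1, 0 and 2 reads in the cisplatin libraries. Its summed reads, scaled to depth, gave a control over cisplatin ratio of 11.6 with an exact 95% interval of 3.63 to 58.8 that covers counting error only.

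The membrane-type MMPs, anchored in the plasma membrane, went in different directions. Mmp25, which is attached by a lipid anchor and is known from leukocytes, lies at chr17:23628311-23645277. It had 0.773, 0.855 and 0.719 FPKM in the control and 2.51, 2.42 and 2.58 FPKM in the cisplatin libraries, so every cisplatin library was above every control library. It rose 3.20-fold, with a log2 fold change of 1.57 (SE 0.13, adjusted p = 6.8e-05, limma), and stood just under the fold minimum with T-cell centring (log2 fold change 0.99) and at a pseudocount of 1 (0.98). Its rebuilt reads were 117 to 136 in the control and 426 to 444 in the cisplatin libraries. Markers of other leukocytes moved unevenly. Of 12 monocyte and macrophage markers 11 were tested and 6 called higher, while Cd14 was lower (log2 fold change -0.47, adjusted p = 0.00384, limma) and Cd68 did not pass the test (0.0041 on the log2 scale, adjusted p = 0.965, limma). Among the 6, Adgre1 and C1qa passed the filter only through the cisplatin libraries. They averaged 0.288 and 0.265 FPKM in the control libraries. The monocyte and macrophage list had sums of 141 to 160 FPKM in the cisplatin and 74.3 to 78.1 FPKM in the control libraries. Lyz2, the largest part of these sums, averaged 89.7 and 30.8 FPKM. Of 10 neutrophil markers only Elane and Mpo passed the filter, and only through the cisplatin libraries. Elane averaged 1.34 FPKM in the cisplatin and 0.156 FPKM in the control libraries, and Mpo 1.12 and 0.148 FPKM. Both were called higher, which the filter favours, and the rest of the list was not tested. The list summed to 2.85 to 3.93 FPKM in the cisplatin and 0.452 to 1.402 FPKM in the control libraries. Ly6g and Cxcr2 were at 0 in the cisplatin libraries. The 7 B-cell markers summed to 3559 to 3641 FPKM in the cisplatin and 1648 to 1730 FPKM in the control libraries. Most of these sums was Ighm, which averaged 3220 and 1433 FPKM and was called higher. The others were 1.19- to 1.95-fold higher and under the fold minimum, and all 7 had adjusted p-values under 0.05 (limma). The part of these cells in the rise of Mmp25 was not tested.
Mmp24, a membrane-type MMP known from the nervous system, had 2.05, 2.14 and 2.24 FPKM in the control and 0.515, 0.322 and 0.455 FPKM in the cisplatin libraries. It fell with a log2 fold change of -2.10 (SE 0.20, adjusted p = 0.000148, limma). Mmp24 averaged 0.430 FPKM in the cisplatin libraries and passed the filter only through the control libraries, which favours a call as lower. It shares 13.6% of its exon bases with BC029722 on the opposite strand, which averaged 9.96 FPKM in the control and 6.76 FPKM in the cisplatin libraries. Mmp14 (MT1-MMP), the main activator of pro-MMP2, had 3.08, 3.09 and 2.61 FPKM in the control and 2.92, 2.64 and 2.28 FPKM in the cisplatin libraries. The groups overlapped and the log2 fold change was -0.16 (95% interval -0.46 to 0.13), which became 0.05 after quantile normalization. Mmp15 had 1.17, 1.23 and 1.18 FPKM in the control and 1.49, 1.43 and 1.43 FPKM in the cisplatin libraries. Its log2 fold change of 0.26 (95% interval -0.03 to 0.56) did not pass the test and was -0.32 with T-cell centring. Mmp17, also attached by a lipid anchor, averaged just under the filter, with 135, 156 and 135 reads in the control and 43, 39 and 49 reads in the cisplatin libraries. Its control over cisplatin ratio of reads was 3.31 (exact 95% interval 2.72 to 4.06, counting error only). Of the remaining MMPs, Mmp19 had 0.801, 0.925 and 0.904 FPKM in the control and 0.665, 0.538 and 0.524 FPKM in the cisplatin libraries, without passing the test (log2 fold change -0.54, adjusted p = 0.0743, limma). It shares 22.3% of its exon bases with Tmem198b on the opposite strand, at 4.70 FPKM in the control and 3.48 FPKM in the cisplatin libraries.

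**Figure D2:**
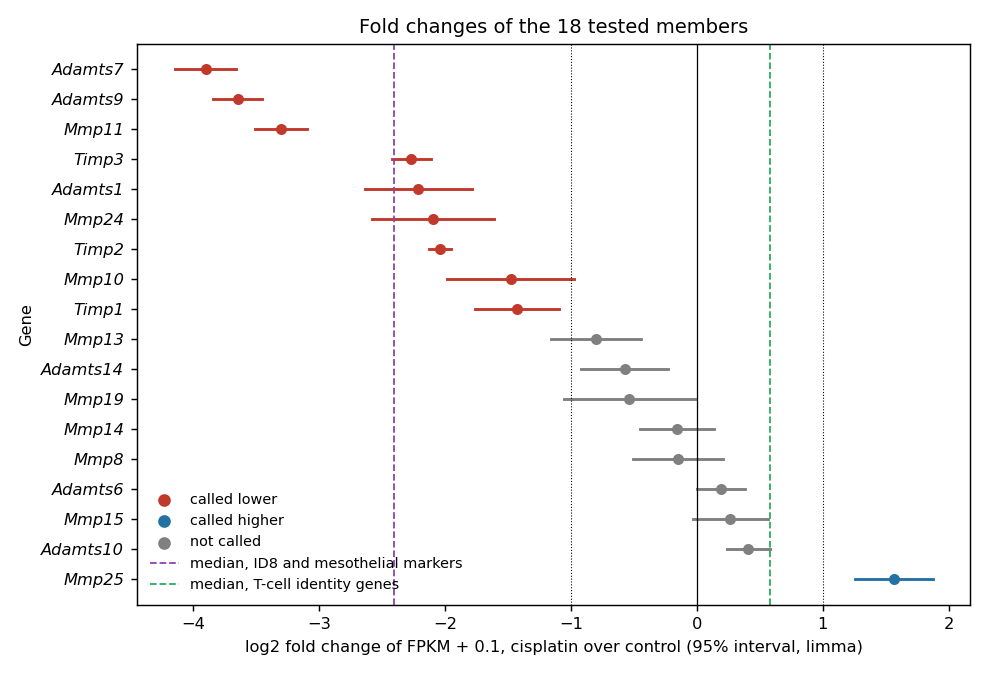
Log2 fold changes of the 18 tested members with 95% intervals from limma, dotted lines at the fold minimum and dashed lines at the medians of the ID8 and T-cell markers. Adamts7, Adamts9 and Mmp11 lie to the left of the ID8 marker median of -2.41, and only Mmp25 lies to the right of the T-cell median of 0.58.

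The ADAMTS family held both the largest falls and the member with the highest level after Timp2 in the cisplatin libraries. Adamts7, which cuts cartilage oligomeric matrix protein, lies at chr9:90163069-90208071. It had 11.3, 10.9 and 10.1 FPKM in the control and 0.595, 0.581 and 0.707 FPKM in the cisplatin libraries. The means were 10.8 ± 0.631 FPKM and 0.628 ± 0.0691 FPKM (SD, n = 3), a 17.1-fold fall on linear FPKM, and the log2 fold change was -3.90 (SE 0.10, adjusted p = 4.05e-07, limma). Adamts9, a proteoglycan-cutting enzyme at chr6:92772699-92943492, had 11.7, 11.6 and 11.0 FPKM in the control and 0.858, 0.756 and 0.849 FPKM in the cisplatin libraries, a log2 fold change of -3.65 (SE 0.08, adjusted p = 2.28e-07, limma). Both genes overlap others, since 1.94% of the exon bases of Adamts7 lie in Tbc1d2b and 9.18% of those of Adamts9 in A730049H05Rik, each on the opposite strand. Tbc1d2b averaged 10.5 FPKM in the cisplatin and 12.02 FPKM in the control libraries, while A730049H05Rik averaged 0.0682 and 3.12 FPKM. Adamts1, which cuts versican and aggrecan, had 3.20, 4.02 and 3.48 FPKM in the control and 0.880, 0.609 and 0.605 FPKM in the cisplatin libraries. It was called lower with a log2 fold change of -2.21 (SE 0.18, adjusted p = 6.28e-05, limma).
Adamts10, which binds fibrillin microfibrils, was the most abundant ADAMTS gene, with 22.5, 20.3 and 18.3 FPKM in the control and 26.9, 26.8 and 27.2 FPKM in the cisplatin libraries. The groups did not overlap, and the 1.32-fold difference (log2 fold change 0.41, SE 0.07, adjusted p = 0.00278, limma) was under the fold minimum and became -0.17 with T-cell centring. Its share of the summed ADAMTS FPKM was 36.5% to 40.1% in the control and 75.01% to 76.7% in the cisplatin libraries. Adamts6, a close relative of Adamts10, had 3.63, 3.48 and 3.78 FPKM in the control and 3.91, 4.48 and 4.09 FPKM in the cisplatin libraries. Its log2 fold change of 0.19 (adjusted p = 0.077, limma) did not pass the test and was -0.39 with that centring. Adamts14, a procollagen N-proteinase, had 3.10, 2.71 and 2.78 FPKM in the control and 2.18, 2.01 and 1.54 FPKM in the cisplatin libraries, a log2 fold change of -0.58 under the fold minimum (SE 0.15, adjusted p = 0.0137, limma). The procollagen N-proteinase Adamts2 was low, with 37, 26 and 36 reads in the control and 7, 12 and 6 reads in the cisplatin libraries. Adamts5, a main aggrecan-cutting enzyme, had 46, 25 and 49 reads in the control and 20, 25 and 19 reads in the cisplatin libraries. Adamts13, the von Willebrand factor protease of liver and endothelium, had 42 reads over the control and 49 over the cisplatin libraries.

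Of the 26 members under the filter, 5 had FPKM that were lower in every cisplatin than in every control library (Mmp17, Mmp2, Adamts2, Adamts5 and Timp4), 0 were higher in every one, 20 overlapped and Mmp1b had no reads. Over all genes with reads under the filter, 8.53% were lower and 4.89% higher in this way, and over the protein-coding ones 12.7% and 6.48%. In Adamts5 and Timp4 the rebuilt reads of the closest libraries were equal, so the separation there rests on the library scaling. Adamts3, a procollagen N-proteinase, had 89 reads over the control and 42 over the cisplatin libraries, with overlapping groups. Mmp28 (epilysin) had 30, 51 and 48 reads in the control and 39, 15 and 36 reads in the cisplatin libraries, and Mmp23 had 15, 48 and 18 reads against 43, 34 and 32. Mmp16, a membrane-type MMP, had 0 reads in the control and 6 in the cisplatin libraries, 5 of them in 1 library. In 5 members, Mmp1b, Mmp3, Mmp7, Mmp20 and Adamts19, no library had more than 3 reads, and no fold change is given.

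In the MMP cluster on chromosome 9, 8 of the members analysed lie within 427.1 kb, chr9:7272514-7699585. Neighbours in it were at different levels. Mmp13, Mmp10 and Mmp8 had between 29 and 404 reads in each library, Mmp27 had 2, 5 and 8 reads in the control and 4, 13 and 25 reads in the cisplatin libraries, and the other 4 had at most 2 reads in any library. The groups overlapped for Mmp27, whose control over cisplatin ratio of summed reads was 0.364 (exact 95% interval 0.188 to 0.67, counting error only). Among the promoters shown above, Mmp3 and Mmp10 have the same AP-1 letters (TGAGTCA), and Mmp8 has no such letters. Mmp3 was at or under 2 reads, and Mmp8 was detected in all 6 libraries. Motifs were not tested against level. Of the 3 cluster members tested, Mmp10 was called lower and Mmp13 and Mmp8 were not called.

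**Figure D3:**
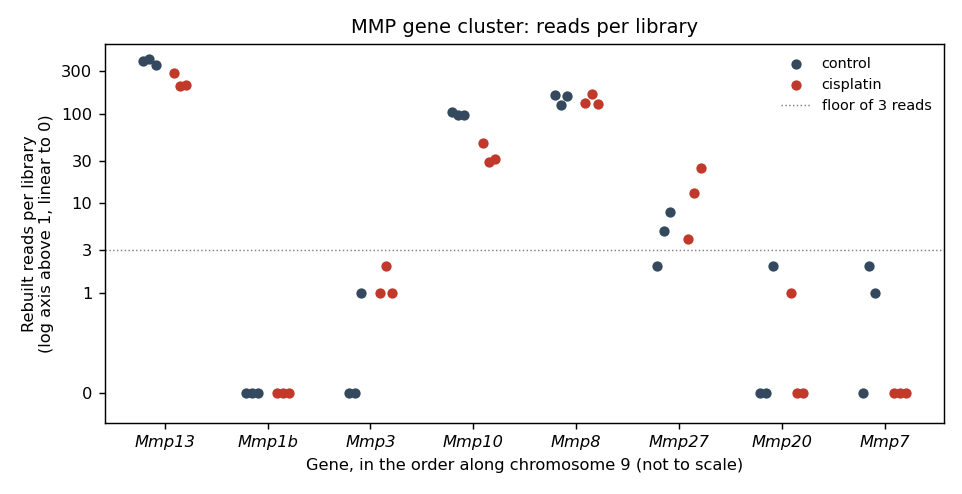
Rebuilt reads per library for the 8 cluster members in their order along chromosome 9, on an axis that is logarithmic above 1 read, with a dotted line at the floor of 3 reads. Mmp13, Mmp10 and Mmp8 lie above the floor in all 6 libraries, and Mmp1b, Mmp3, Mmp20 and Mmp7 at or below 2 reads.

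Genes that activate or restrain these proteases outside the 3 families were taken from a list of 30, of which 20 were tested. Of these, 8 were called lower and 0 higher, with a median log2 fold change of -0.42. Bsg, a surface protein that induces MMPs, fell from 582 to 100.04 FPKM (log2 fold change -2.54, adjusted p = 5.94e-08, limma). Lrp1, the receptor that clears several MMPs and ADAMTS enzymes, had a log2 fold change of -2.78, and Adam9, a membrane protease, of -1.66. Cav1, Adam15, Plat and Papln were also called lower. Papln passed the filter only through the control libraries, where it averaged 1.19 FPKM, against 0.401 FPKM in the cisplatin libraries. Furin, which removes the inhibitory part of membrane-type MMPs and ADAMTS enzymes, had a log2 fold change of -0.40 under the fold minimum, and Reck, a membrane-bound MMP inhibitor, of -0.13 (adjusted p = 0.527, limma). Plau and Plaur, which generate and localise plasmin activity, had log2 fold changes of -0.43 and 0.08 and were not called.
Of 22 matrix substrates other than collagens and laminins, 10 were tested, 8 were called lower and 0 higher, and the median log2 fold change was -2.34. Bgn, Fn1, Hspg2, Fbln2 and Dcn had log2 fold changes of -2.37 to -2.55, Spp1 (osteopontin) of -1.49, Matn2 of -1.72 and Fbn1 of -2.32. Fbn1 passed the filter only through the control libraries, where it averaged 0.942 FPKM, against 0.110 FPKM in the cisplatin libraries. The aggrecan gene Acan, the substrate for which several ADAMTS are named, had 6, 2 and 0 reads in the control and 2, 0 and 0 reads in the cisplatin libraries. Cav1 is also among the ID8 markers and Dcn among 7 fibroblast markers. Of those 7, 2 were tested and Dcn was called lower, the sum was 9.44 to 9.50 FPKM in the cisplatin and 41.0 to 42.6 FPKM in the control libraries, and Col3a1 was at 0 in all libraries. Most of these sums was Dcn, which averaged 7.51 FPKM in the cisplatin and 39.2 FPKM in the control libraries. Col1a1 was lower and under the fold minimum. Under the filter, Lum, Pdgfrb and Col1a2 averaged more in the cisplatin libraries and Pdgfra less.

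**Figure D4:**
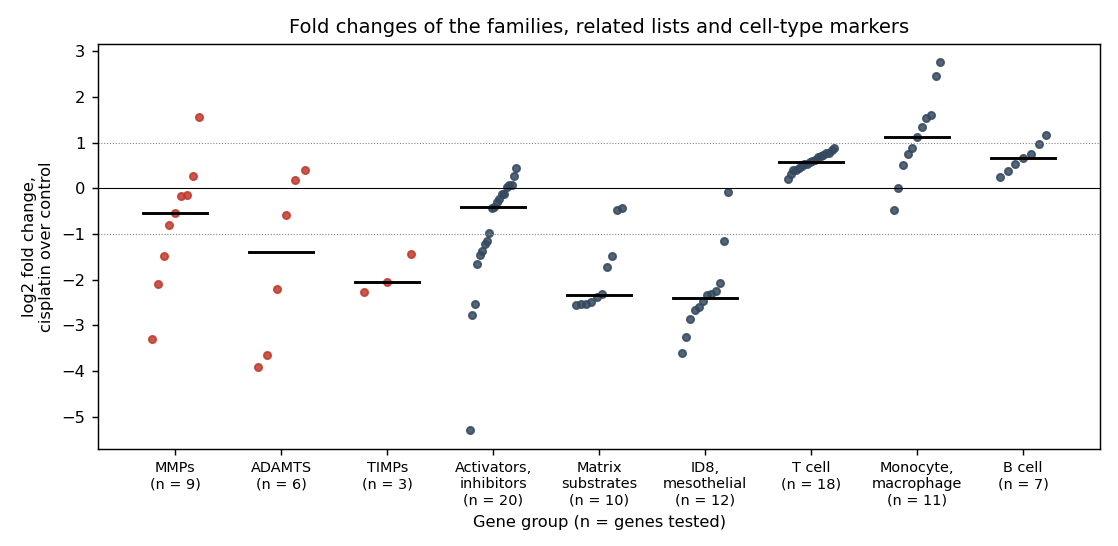
Log2 fold changes of each tested gene (points) and the median (line) for the 3 families in red and for related lists and cell-type markers in dark grey, with dotted lines at the fold minimum. The TIMPs and the matrix substrates lie in the range of the ID8 markers, the MMPs spread from that range to above 0, and the ADAMTS from just below it to above 0.

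Set beside the ID8 markers, whose log2 fold changes had a median of -2.41 and ran from -3.61 to -0.08, the fold changes of the tested members are given as a description with no test. Adamts7, Adamts9 and Mmp11 differed from that median by -1.49, -1.24 and -0.89 on the log2 scale. Timp3, Adamts1, Mmp24 and Timp2 lay within 0.37 above it. Timp1 and Mmp10 lay 0.98 and 0.93 above it, and the 9 members that were not called lower lay 1.604 to 3.97 above it.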

How the data were processed

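Gene-level FPKM from 6 T-cell RNA-seq libraries (poly-A mRNA) were analysed. The authors deposited FPKM, counts divided by gene length and library size. The labels name fastp, HISAT2 2.0.5, featureCounts 1.5.0-p3 and mm10, while the paper's methods name LifeScope, with DESeq2 for differential expression. Whether reads were counted by strand and how shared reads were treated is not given in the sources used here. Gene coordinates equalled GENCODE M21 (GRCm38) for 43 of 44 members. Groups came from the sample titles, and 0 further sample columns were present.

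In each library FPKM times gene length was a whole multiple of 1 step (100% of values above 0 within 0.1 of a whole read). Reads were rebuilt from it (30847321 to 32169496 in cisplatin, 30606569 to 31255205 in control libraries), and intervals from them cover counting error only. A floor of 3 reads was used. The FPKM denominator averaged 1.04 times these reads in the cisplatin and 0.98 times in the control libraries. Replicates differed by more than sampling noise (chi-square per degree of freedom 5.11 to 5.99). The main test was limma 3.58.1 (R 4.3.3; lmFit, eBayes with trend) on log2(FPKM + 0.1) for genes averaging at least 0.5 FPKM, with Benjamini-Hochberg adjustment over all tested genes, and was tested on simulated data. Calls needed adjusted p-values under 0.05 and log2 fold changes of 1 or more in size. Python 3.11.15, pandas 2.3.3 and matplotlib 3.10.9 were used. Alternatives were other pseudocounts, filters, scalings, variance prior and gene set, voom on rebuilt reads, the replicate number as a block, and leaving out each library. Every member could be named, and of the activation and substrate lists up to 8 called genes by level, to which Furin, Reck, Plau, Plaur and Acan were added after their values were seen. The members and lists were chosen with earlier results of these data known. Some genes, also of these families, are not reported here.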

Additional observations from a re-analysis of the deposited data

How the results depend on the processing

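No member called lower or higher changed direction in any alternative. For the members' median log2 fold change (-1.12), the alternatives gave -0.74 at a pseudocount of 1, -0.16 without a filter (43 members), -2.27 at a minimum of 5 FPKM (7 members), -0.95 after quantile normalization, -1.70 centred on the T-cell identity genes and -0.89 by voom on rebuilt reads (28 members). Members called lower numbered 9 in the main test, 8 at a pseudocount of 1, 10 without a filter, 6 at 5 FPKM, 12 under the centring, 11 by voom and 9 in the other alternatives that kept all libraries. Members called higher numbered 1, and 0 at a pseudocount of 1, at 5 FPKM (where Mmp25 was not tested) and under the centring. Over all tested genes 653 were called higher, against 311 at a pseudocount of 1, 242 at 5 FPKM (903 lower), 255 among protein-coding genes alone, and 139 under the centring (3763 lower, against 2034). Their median (0.03) was -0.0084 without a filter, 0.16 after quantile normalization, -0.55 under the centring, 0.11 after rescaling by rebuilt reads and -0.018 for protein-coding genes. The activation list's median (-0.42) was -0.23 without a filter, -0.29 after quantile normalization and -0.997 under the centring, and it had 1 gene called higher without a filter and 3 by voom. The substrates' median (-2.34) was -1.86 and -2.44 at pseudocounts of 1 and 0.01, -0.48 without a filter, -2.51 at 5 FPKM, -2.18 after quantile normalization, -2.92 under the centring and -1.32 by voom.
Reversals were those of Mmp14 (0.0457) and Mmp8 (0.043) after quantile normalization, and of Adamts10 (-0.17), Adamts6 (-0.39) and Mmp15 (-0.32) under the centring. The centring also brought Mmp13 (-1.38), Adamts14 (-1.15) and Mmp19 (-1.12) past the fold minimum. It lowers every gene alike by construction. The filters alter which genes are tested, and the cause of the changes with them and of the other changes was not tested.
Leaving out 1 library gave member medians of -1.42 to -1.10, with 9 to 10 members called lower and 1 called higher. With a cisplatin library left out 19 members were tested, and with a control library left out 18. Among all tested genes 1907 to 2083 were called lower and 570 to 693 higher, with medians of 0.02 to 0.03. The activation list gave 8 called lower and medians of -0.44 to -0.37, and the substrates 7 to 8 and -2.41 to -2.31.
With the replicate number as a block, 9 members were called lower and 1 higher, as without it. Deviations of equally numbered libraries correlated at 0.02, -0.06 and -0.02, and not every library correlated best with its own number, so the numbers were not read as pairs. Depth limits those of the 25 members under the filter that had few reads, and intervals cannot show library-to-library spread.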

Other observations

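Cisplatin library 1 had the highest FPKM of its group for 12 of the 18 tested members and for 7 of the 9 called lower. Over all tested genes this library was the highest of the 3 for 29.7%, and over the genes called lower for 40.5%. The members in question included Timp1, Mmp10, Mmp13 and Adamts1. The ID8 and mesothelial markers summed to 234, 227 and 229 FPKM in cisplatin libraries 1, 2 and 3, and the monocyte and macrophage markers to 152, 160 and 141 FPKM. Without this library 10 of 19 tested members were called lower, the same counts as without either other cisplatin library. The pattern was noticed after the data were seen and was not tested.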
